A study of Mus musculus with 6 samples.

Results

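The genes described here are *Slc9a5*, *Slc9a7*, *Slc9a8* and *Slc9a9*, 4 members of the Slc9a family of sodium-proton exchangers, out of 36137 genes measured in bone marrow-derived macrophages (BMDMs) that lack or retain the mitochondrial fission GTPase DRP1. They were listed by name with results of the comparison of Drp1 KO with WT already known, so their differences between genotypes are given as values with their error and were not tested. All 4 held enough reads to enter the fit, among 18506 genes. Of the members, *Slc9a9* had the highest transcript level, and its level in Drp1 KO BMDMs was lower than in WT BMDMs in all libraries, by a log2 difference of -0.96. For the 3 other members the log2 difference lay between -0.10 and 0.10.

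Sodium-proton exchangers trade sodium or potassium ions for protons across a membrane. At the cell surface they use the inward sodium gradient to expel protons and so raise the pH of the cytosol. In endosomes and the Golgi they let protons out of the lumen, against the inward pumping of the V-ATPase, and so set how acidic these compartments become. *Slc9a5* encodes NHE5, an exchanger of the plasma membrane known mainly from neurons, where it cycles between the surface and recycling endosomes. *Slc9a7*, *Slc9a8* and *Slc9a9* encode organellar exchangers, with NHE7 found in the trans-Golgi network, NHE8 in the Golgi and late endosomes and NHE9 on recycling and late endosomes. Macrophages depend on endosome and phagosome acidification to digest what they take up.

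BMDMs were differentiated from mouse bone marrow for 7 days and then kept for 8 hours in hypoxia with serum starvation (HSS), the culture condition that the study used to imitate ischemia. The Drp1 KO cells came from LysM-Cre+/- Drp1 fl/fl mice and the WT cells from LysM-Cre+/- Drp1+/+ mice, so both groups carried the Cre recombinase that the lysozyme M promoter drives in myeloid cells. The LysM-Cre line is on a C57BL/6J background, mice of both sexes were used in the study at 8 to 12 weeks of age, and marrow of 2 mice per genotype was pooled. Each group has 3 libraries, labelled as biological replicates. The sequenced BMDMs are described as n = 3 per group, from mice of each genotype, but no source used here says whether each library came from its own pool, so SDs and p-values measure the spread between these libraries. Cultures outside HSS were not analysed here, so the values hold for HSS only.

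The libraries held 23389488 to 32231206 estimated reads. Levels within a gene are given as CPM, counts per 1000000 reads of the normalised library size, and 3 counts, taken as the floor, amounted to 0.0917 to 0.136 CPM. *Dnm1l*, the gene that encodes DRP1, lay at 72.7, 69.9 and 75.1 CPM in WT libraries, against 58.7, 60.7 and 66.3 CPM in Drp1 KO libraries, which is -0.23 on the log2 scale for Drp1 KO relative to WT, with a standard error of 0.0921. All 3 Drp1 KO libraries were below all 3 WT libraries, as in 10.3% of all genes tested, but *Dnm1l* was not called (edgeR adjusted p = 0.248). A count per gene cannot tell the exons apart, so these values do not check the deletion. The paper itself showed the deletion at the protein level, by immunoblot of BMDMs and peritoneal macrophages against Drp1 fl/fl controls. The 8 macrophage markers summed to 13521 to 14919 CPM in WT and 12057 to 14465 CPM in Drp1 KO libraries, with *Fcgr1* higher and *Csf1r* and *Mertk* lower (edgeR, adjusted p under 0.05). That is 3 of 8 markers called, where 3.36% of all genes tested were called. The 6 neutrophil markers summed to 6.73 to 20.8 CPM in WT and 20.2 to 48.0 CPM in Drp1 KO libraries, with none of the 5 tested called and *Ly6g* at 0 in all 6 libraries. The sums for dendritic cells, fibroblasts, B cells, T and NK cells, erythroid cells and mast cells or basophils did not exceed 4.09 CPM in any library, and *Cd209a*, *Ncr1*, *Hba-a1*, *Hbb-bs*, *Mcpt8* and *Fcer1a* were at 0. The part of the neutrophil and macrophage markers in the differences below was not tested, and in bulk RNA fewer cells of a type and less RNA per cell cannot be told apart.

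The members are related in sequence but were counted apart. Reads were assigned by kallisto, which matches stretches of 31 bases by default, and in the GENCODE vM39 transcripts none of the 31-base stretches of any member occurred in another Slc9 gene. None of the 5589 stretches of *Slc9a5* or the 5663 of *Slc9a9* occurred in any other gene, and 0.969% of those of *Slc9a7* and 0.930% of those of *Slc9a8* did. The transcript versions of that annotation may differ from those the authors indexed. The 60 coding bases of *Slc9a9* that the other members match best in sum are printed here, beside the best match in each other gene. The search used ungapped, codon-aligned windows within an exon of *Slc9a9*. Bases run 5′ to 3′ on each gene's coding strand, so that kinship and the differences that separate the reads can be seen together. Capitals mark the 27 bases that are the same in all 4 genes.
Slc9a5: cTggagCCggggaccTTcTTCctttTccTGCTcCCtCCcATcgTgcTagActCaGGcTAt
Slc9a7: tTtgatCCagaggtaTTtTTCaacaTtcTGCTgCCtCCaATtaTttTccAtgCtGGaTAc
Slc9a8: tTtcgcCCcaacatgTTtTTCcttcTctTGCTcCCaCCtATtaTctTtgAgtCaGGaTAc
Slc9a9: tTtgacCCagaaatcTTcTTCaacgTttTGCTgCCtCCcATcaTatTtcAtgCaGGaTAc
In GRCm39 the stretch lies at chr8:106080171-106080230 on the plus strand in exon 2 of *Slc9a5*, at chrX:20068961-20069020 on the minus strand in exon 3 of *Slc9a7*, at chr2:167285381-167285440 on the plus strand in exon 5 of *Slc9a8* and at chr9:94593403-94593462 on the plus strand in exon 3 of *Slc9a9*. Over these bases *Slc9a7* shared 48 with *Slc9a9*, *Slc9a8* shared 40 and *Slc9a5* shared 37. The coding sequences measured 2694 bases for *Slc9a5*, 2178 for *Slc9a7*, 1728 for *Slc9a8* and 1932 for *Slc9a9*.

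*Slc9a9* (ENSMUSG00000031129, chr9:94551669-95112500, plus strand), which encodes the endosomal exchanger NHE9, had 339, 362 and 397 CPM in WT libraries 1 to 3 and 198, 191 and 175 CPM in Drp1 KO libraries 1 to 3. The lowest WT library was well above the highest Drp1 KO library, and the libraries within each genotype lay close together. The means were 366 ± 29.1 CPM in WT against 188 ± 11.7 CPM in Drp1 KO cells (SD, n = 3 each), so that WT held 1.94 times the level of Drp1 KO. The log2 fold change (log2FC, Drp1 KO relative to WT) was -0.96 with a standard error (SE) of 0.0995, and over the 14 other settings tried, which include leaving out each library, it ran from -1.01 to -0.91. These values rest on 4366 to 11646 counts per library. Among all genes tested, 10.3% had all Drp1 KO libraries below all WT libraries in CPM and 11.7% had them all above, and nothing is read from either share here since the members were chosen on this contrast.

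*Slc9a8* (ENSMUSG00000039463, chr2:167263472-167318922, plus strand), which encodes the Golgi and late endosome exchanger NHE8, had 20.1, 21.7 and 21.7 CPM in WT libraries, against 21.9, 23.7 and 22.3 CPM in Drp1 KO libraries. Here the Drp1 KO libraries were all above the WT libraries, but by less than 1 CPM at the nearest pair. The means were 21.2 ± 0.903 and 22.6 ± 0.922 CPM (SD, n = 3 each), with log2FC at 0.10 and SE at 0.103. The direction depended on how transcript length was treated. With counts scaled to transcript length the log2FC was -0.0038, and in TPM, the abundance of transcripts after division by their length, the groups overlapped at 20.2 ± 2.67 in WT and 19.0 ± 2.53 in Drp1 KO BMDMs. Within the 3 pairs of same-numbered libraries, Drp1 KO was higher in all 3 by CPM and lower in all 3 by TPM. Pairing by number is an assumption here and below, since correlations between the libraries did not single it out.

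*Slc9a7* (ENSMUSG00000037341, chrX:19965087-20158231, minus strand), which encodes the trans-Golgi exchanger NHE7, had 10.9, 12.1 and 15.0 CPM in WT libraries, against 10.1, 12.8 and 12.5 CPM in Drp1 KO libraries. The groups overlapped, and both the highest and the second-lowest library were WT. The means were 12.7 ± 2.11 and 11.8 ± 1.49 CPM (SD, n = 3 each), with log2FC at -0.10 and SE at 0.158. Leaving out 1 library at a time moved it between -0.20 and 0.02. The span of *Slc9a7* overlaps *Chst7* on the opposite strand, and whether the counting used strand is not given in the sources used here. On either strand, 0.969% of the 31-base stretches of *Slc9a7* transcripts occurred in any other gene. Transcript sequence shared with *Chst7* is thus at most that share. *Chst7* itself was given a mean of 12 counts per library.

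*Slc9a5* (ENSMUSG00000014786, chr8:106074801-106097709, plus strand), the surface exchanger among the members, had 1.21, 1.20 and 1.26 CPM in WT libraries, against 0.772, 1.22 and 1.59 CPM in Drp1 KO libraries. The Drp1 KO libraries lay on both sides of the WT libraries. The means were 1.22 ± 0.0333 and 1.20 ± 0.412 CPM (SD, n = 3 each), with log2FC at -0.01 and SE at 0.326. Its sign turned with the setting, at 0.30 with protein-coding transcripts only, 0.19 when Drp1 KO library 1 was left out and -0.27 when Drp1 KO library 3 was. It was counted with 17 to 52 reads per library, above the floor in each, and at this depth a difference of the size seen for *Slc9a8* would not be detectable.

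**Figure D1:**
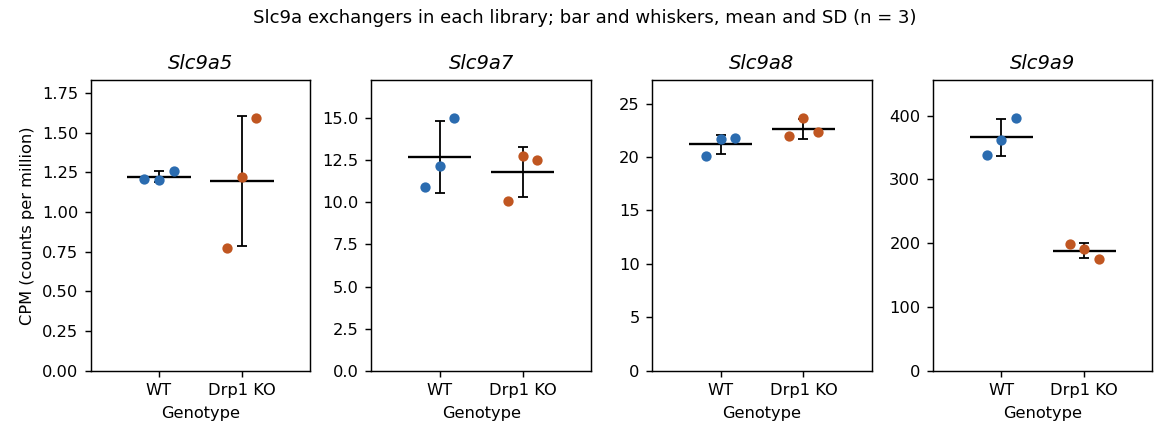
Level of each member in CPM (vertical axis, starting at 0, with its own scale in each panel) in the 3 WT and 3 Drp1 KO libraries. Points are libraries, the bar is the mean and the whiskers the SD. *Slc9a9* stands at 366 in WT against 188 CPM in Drp1 KO BMDMs with no overlap, whereas the *Slc9a5* and *Slc9a7* points overlap between genotypes.

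Across the 4 members the median log2FC was -0.06, beside a median of 0.00460 over all genes tested, and only that of *Slc9a9* kept its sign under every setting tried. Over the 6 libraries, Pearson's r of log2 CPM was 0.63 between *Slc9a5* and *Slc9a7*, -0.63 between *Slc9a8* and *Slc9a9* and 0.05 to 0.33 for the other pairs, given as a description of libraries that share their genotype and replicate number.

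To compare the exchangers with each other, levels were taken per transcript length, in TPM, for the 4 members and 6 further Slc9 genes. *Slc9a9* was the highest of these 10 genes in both genotypes, at 158 ± 20.4 TPM in WT against 78.3 ± 3.0 TPM in Drp1 KO cells (SD, n = 3 each). Its values were 140, 153 and 180 TPM in WT and 80.6, 79.4 and 74.9 TPM in Drp1 KO libraries. Its level was that of a fairly abundant transcript, at rank 870 of the 18506 genes in WT and 1731 in Drp1 KO BMDMs. *Slc9a8* was next at 20.2 ± 2.67 and 19.0 ± 2.53 TPM. Over all transcripts of a gene, *Slc9a9* thus exceeded *Slc9a8* 7.81 times in WT and 4.12 times in Drp1 KO BMDMs. *Slc9a7* followed at 9.76 ± 2.98 and 8.27 ± 1.20 TPM. *Slc9b2* and *Slc9b1*, of the more distant NHA branch, were at 2.00 and 0.395 TPM in WT and 1.85 and 0.375 TPM in Drp1 KO BMDMs. All *Slc9b1* counts in WT and 75.6 ± 21.3% in Drp1 KO BMDMs (SD, n = 3) lay on forms that do not code for protein. *Slc9a4*, a surface exchanger of the stomach lining, was at 0.256, 1.57 and 0.636 TPM in WT and 0.509, 0.530 and 0.602 TPM in Drp1 KO libraries, so that its WT mean rests largely on WT library 2. In CPM, by contrast, all 3 Drp1 KO libraries of *Slc9a4* were above the WT libraries, at 0.905 ± 0.0138 against 0.702 ± 0.110 CPM (SD, n = 3 each), as in 11.7% of all genes tested, on 16 to 30 counts per library. *Slc9a5* was at 0.381 ± 0.0211 and 0.358 ± 0.136 TPM. *Slc9a9* held 415 times the level of *Slc9a5* in WT and 219 times in Drp1 KO BMDMs, and 728 and 308 times when only protein-coding transcripts were summed. The epithelial forms *Slc9a2* and *Slc9a3* were at or below 0.0262 TPM on average, and *Slc9c1*, a sperm exchanger, had no count in any library.

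In both genotypes the libraries of *Slc9a9* stood apart from those of *Slc9a8*, those of *Slc9a8* from those of *Slc9a7*, and those of *Slc9a7* from those of *Slc9b2*. This order of *Slc9a8* and *Slc9a7* holds for all transcripts of a gene and turns when only protein-coding transcripts are summed. Of the *Slc9a8* TPM, 23.9 ± 2.45% in WT and 26.3 ± 4.21% in Drp1 KO BMDMs lay on protein-coding forms (SD, n = 3 each), against 96.1 ± 4.65% and 96.5 ± 2.68% for *Slc9a7*. The form with the largest share of the *Slc9a8* TPM was Slc9a8-208, of 809 bases and with no defined coding sequence, at 44.5% in WT and 40.9% in Drp1 KO BMDMs. On protein-coding forms *Slc9a8* was at 4.79 ± 0.167 TPM in WT and 4.94 ± 0.329 TPM in Drp1 KO BMDMs. *Slc9a7* was at 9.28 ± 2.35 and 7.98 ± 1.20 TPM, above *Slc9a8* in every library. *Slc9a9* was the highest member on these forms too, at 156 ± 20.1 and 75.4 ± 1.73 TPM, which is 32.6 times *Slc9a8* in WT and 15.3 times in Drp1 KO BMDMs. *Slc9b2* stood apart from *Slc9a4* in Drp1 KO libraries and overlapped it in WT libraries. *Slc9a4* overlapped *Slc9b1*, and *Slc9b1* overlapped *Slc9a5*, in both genotypes, so these neighbours did not differ beyond their spread. *Slc9a5* in turn stood apart from *Slc9a3* in both.

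**Figure D2:**
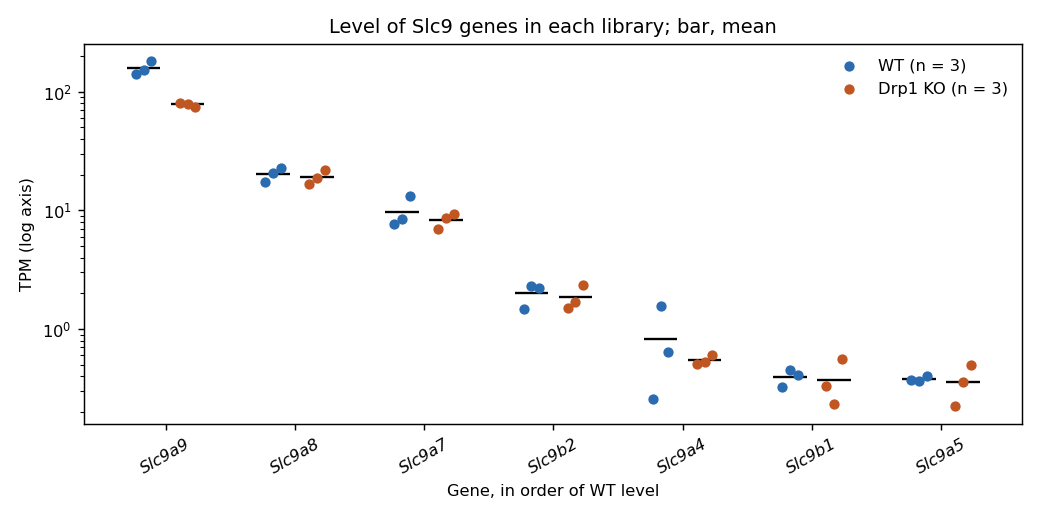
TPM (log axis) of 7 Slc9 genes with more than trace counts, in order of WT level over all transcripts of a gene, with the WT and Drp1 KO libraries as points and bars at the group means. *Slc9a9* is the highest of them in all 6 libraries and *Slc9a5* is the lowest by WT mean, 415 times lower (728 times on protein-coding transcripts).

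The surface member was then compared with the organellar members. *Slc9a5*, the surface member, was at 0.372, 0.365 and 0.405 TPM in WT and 0.223, 0.356 and 0.495 TPM in Drp1 KO libraries, with overlap. The organellar members *Slc9a7*, *Slc9a8* and *Slc9a9* summed to 165, 182 and 216 TPM in WT libraries, against 104, 107 and 106 TPM in Drp1 KO libraries. Every Drp1 KO library was below every WT library in this sum, whose means were 188 ± 25.8 and 106 ± 1.26 TPM (SD, n = 3 each). With *Slc9a9* taken out, the sum was 24.9, 29.3 and 35.7 TPM in WT and 23.6, 27.3 and 30.9 TPM in Drp1 KO libraries. The groups overlapped, while the Drp1 KO library was the lower of each of the 3 same-numbered pairs.

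*Slc9a9* alone made up 83.9 ± 0.729% of the members' summed TPM in WT and 73.9 ± 3.37% in Drp1 KO BMDMs, without overlap. The 3 organellar members together made up 99.8 ± 0.0188% and 99.7 ± 0.126%, which overlapped between genotypes. The sums hold *Slc9a9*, whose difference was known when it was chosen, and are a description only.

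**Figure D3:**
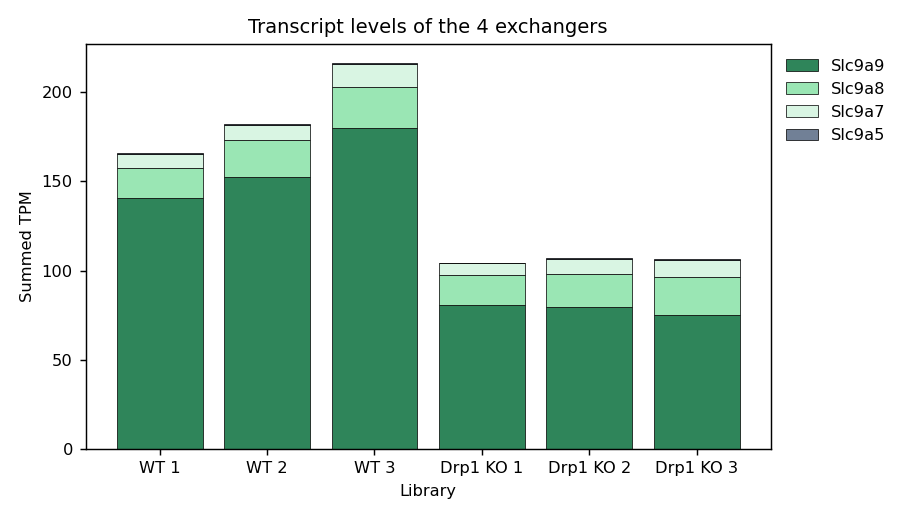
Summed TPM of the 4 members in each library, stacked by gene, with the organellar members in green and the surface member *Slc9a5* as a band on top too thin to be seen at this scale, at 0.495 TPM or less. The *Slc9a9* segment is shorter in the 3 Drp1 KO libraries (75 to 81 TPM) than in the 3 WT libraries (140 to 180 TPM).

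Of the 6 further Slc9 genes, 4 passed the minimum of 10 counts and were tested in the same fit over all genes. None of them rose or fell at an adjusted p under 0.05 (edgeR's quasi-likelihood test with Benjamini-Hochberg adjustment), none had an unadjusted p under 0.05, and DESeq2 called none, with no adjusted p for *Slc9a3* and *Slc9b1*. For comparison, 3.36% of all genes tested were called. The median log2FC of the 4 was 0.08, with 2 values above and 2 below 0. *Slc9a4* had a log2FC of 0.36 (SE 0.326, edgeR adjusted p = 0.672). *Slc9b2* had 0.17 (SE 0.303, edgeR adjusted p = 0.870), and *Slc9b1*, with 40 counts in all, had -0.30 (SE 0.540, edgeR adjusted p = 0.868). *Slc9a3* had 17 counts in all and a standard error of 1.45, so the depth does not show whether it differed, and *Slc9a2* (9 counts) and *Slc9c1* (0 counts) were not tested.

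The exchangers work with binding partners, and 14 genes of such proteins were measured. *Chp2* was the only one called by edgeR or DESeq2, against 1.06% of all genes called lower. It encodes a calcineurin B homologous protein that binds the tail of plasma membrane exchangers and is an alternative to the ubiquitous *Chp1*. It had 3.79, 1.57 and 2.11 CPM in WT libraries, against 0.817, 0.917 and 0.399 CPM in Drp1 KO libraries, with every Drp1 KO library below every WT library, as in 10.3% of all genes tested. The level fell from 2.49 ± 1.16 to 0.711 ± 0.275 CPM (SD, n = 3 each; log2FC -1.81, SE 0.418, edgeR adjusted p = 0.0455). The call was lost with length-scaled counts (adjusted p = 0.0630) and without any 1 of the 6 libraries (adjusted p from 0.0553 to 0.133), with a log2FC of -1.81 with length-scaled counts and -2.07 to -1.39 with a library left out. *Chp1*, named after its values were seen, had 100 ± 13.2 and 115 ± 11.6 CPM with a log2FC of 0.20 (edgeR adjusted p = 0.450).

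Of the other partners, *Tesc*, a further calcineurin B homologous protein, *Ezr*, the membrane-cytoskeleton linker ezrin, and *Cd44*, a surface glycoprotein that binds hyaluronan, had an unadjusted p under 0.05, and all 3 were named after their values were seen. With *Chp2*, 4 of the 14 partner genes had such a p by edgeR, beside 16.4% of all genes tested. For *Tesc*, *Ezr* and *Cd44*, nothing is read from it. Their log2FC values were -1.18, -0.32 and 0.32, with adjusted p of 0.263, 0.243 and 0.181 (edgeR). With same-numbered libraries treated as pairs, *Ezr* was called lower along with *Chp2*, where that fit called 12% of all genes, 6.73% higher and 5.22% lower. *Rack1*, a ribosome-bound scaffold protein, had the highest level of the list at 387 TPM with a log2FC of 0.10 (edgeR adjusted p = 0.833). The median over the list was -0.01, with 7 values above and 7 below 0.

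Ion channels and exchangers that share the endosomal and lysosomal membrane with NHE9 formed a list of 13 genes, all tested. None was called by edgeR or DESeq2, where 3.36% of all genes were called by edgeR, and 1 had an unadjusted p under 0.05 with either tool, against 16.4% of all genes by edgeR. That gene was *Tpcn1*, an endosomal cation channel named after its values were seen, at 121 ± 19.9 CPM in WT against 95.4 ± 7.04 CPM in Drp1 KO cells (log2FC -0.35, SE 0.124, edgeR adjusted p = 0.187). It was called lower when same-numbered libraries were treated as pairs, as were 5.22% of all genes. *Ostm1*, the partner subunit of the chloride-proton exchanger ClC-7, had the highest level at 81.2 TPM with a log2FC of 0.14 (edgeR adjusted p = 0.516). The median over the list was 0.02, and the values ran from -0.35 to 0.16.

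The V-ATPase pumps the protons that organellar exchangers release, and 22 of its 25 subunit and accessory genes were tested. *Atp6v0a1*, which encodes an isoform of the large membrane subunit of the proton channel, was the only one called by edgeR, against the same 1.06% of all genes. DESeq2 also called *Atp6v1c1* higher and *Atp6v1f* lower, and edgeR called *Atp6v1f* lower when no filter beyond 1 count was set. Of all genes, DESeq2 called 8.8% of those it gave an adjusted p, and edgeR without that filter called 4.43%. *Atp6v0a1* had 291, 270 and 250 CPM in WT libraries, against 152, 175 and 179 CPM in Drp1 KO libraries, with a wide gap between the groups. The mean fell from 270 ± 20.3 to 169 ± 14.5 CPM (SD, n = 3 each; log2FC -0.68, SE 0.103, edgeR adjusted p = 0.00639). This call held under 13 of the 14 other settings, with an edgeR adjusted p of 0.0112 to 0.0482 when a library was left out. It did not hold per transcript length. With length-scaled counts the log2FC was -0.19 (adjusted p = 0.595), and in TPM the groups overlapped, with Drp1 KO lower in all 3 same-numbered pairs. *Atp6v0c*, the subunit of the proton-carrying ring, had the highest level at 732 TPM with a log2FC of 0.07 (edgeR adjusted p = 0.911). The median over the list was 0.01, with 13 values above and 9 below 0. With same-numbered libraries treated as pairs 4 subunits were called, *Atp6v0d1* and *Atp6v1c1* higher and *Atp6v0a1* and *Atp6v1f* lower, beside the 12% of all genes called by that fit.

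Transporters and enzymes that control pH at the cell surface and in the cytosol formed a list of 22 genes, of which 18 were tested. *Car13*, a cytosolic carbonic anhydrase, which turns carbon dioxide into bicarbonate and a proton, was the only one called by edgeR or DESeq2, against 2.29% of all genes called higher. It had 51.3, 41.4 and 41.4 CPM in WT libraries, against 60.6, 65.9 and 62.5 CPM in Drp1 KO libraries, without overlap. The mean rose from 44.7 ± 5.71 to 63.0 ± 2.72 CPM (SD, n = 3 each; log2FC 0.50, SE 0.110, edgeR adjusted p = 0.0383). The call was lost with length-scaled counts (adjusted p = 0.0666) and without WT library 2 or 3 or Drp1 KO library 2 or 3 (adjusted p from 0.0855 to 0.230), with a log2FC of 0.49 with length-scaled counts and 0.43 to 0.60 over all 6 libraries left out in turn. *Bsg*, which encodes basigin, the chaperone of the lactate and proton transporters, had the highest level at 475 TPM with a log2FC of -0.27 (edgeR adjusted p = 0.257). With same-numbered libraries treated as pairs, *Bsg* and the anion exchanger gene *Slc4a2* were called lower beside *Car13*, so 3 of 18 against 12% of all genes. The median over the list was -0.12, with 6 values above and 12 below 0.

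**Figure D4:**
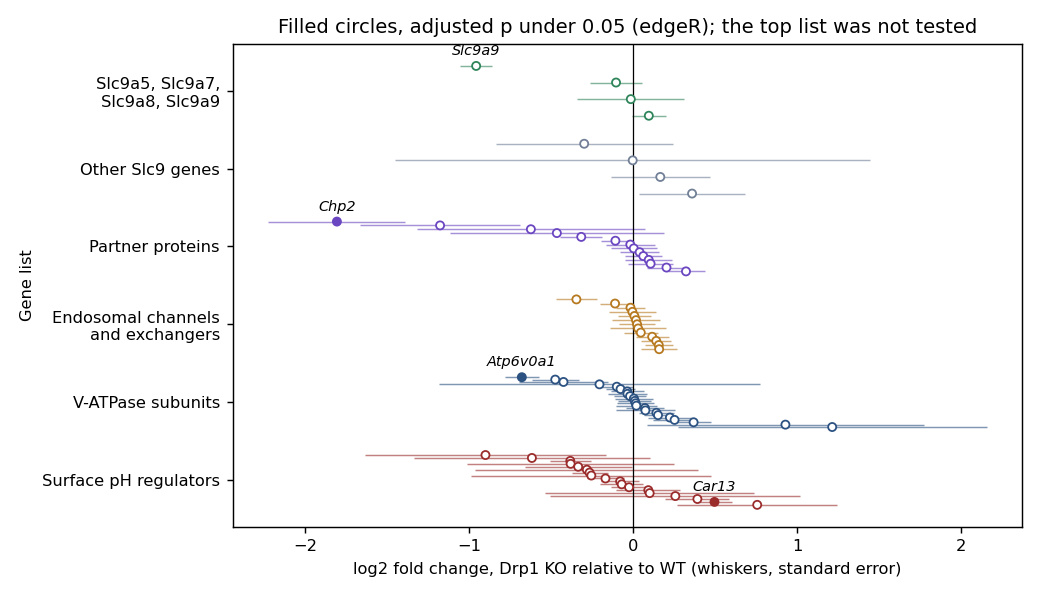
Log2 fold changes of Drp1 KO relative to WT (horizontal axis) for each tested gene of the 6 lists (vertical axis), with whiskers for the standard error and filled circles for an adjusted p under 0.05 by edgeR. *Slc9a9* at -0.96 was not tested, and *Chp2*, *Atp6v0a1* and *Car13* are the filled circles.

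The share of a gene's counts on its leading transcript is given as a description with no test, since it divides by the summed counts on which the members were chosen. *Slc9a9* had 3 annotated transcripts, of which 1 codes for protein, and that transcript, Slc9a9-201, took 99.7, 99.6 and 99.7% of the counts in WT and 98.6, 99.0 and 99.4% in Drp1 KO libraries. The Drp1 KO libraries were all lower, with mean shares of 99.7 ± 0.0604% and 99.0 ± 0.406% (SD, n = 3 each). The difference was -0.705 percentage points by counts and -2.53 by TPM. The remaining counts of Slc9a9-202, a retained intron form, were 7.01, 19 and 7 in WT and 9, 23 and 17 in Drp1 KO libraries. Those of Slc9a9-203, whose coding sequence is not defined, were 15.2, 18.8 and 27.0 in WT and 53.5, 41.6 and 18.4 in Drp1 KO libraries. In counts these minor forms overlapped between the genotypes.

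The counts of the other members were less concentrated on 1 form. Slc9a8-201, 1 of 12 transcripts of the gene, took 53.0 ± 6.59% of counts in WT and 54.5 ± 7.29% in Drp1 KO BMDMs (SD, n = 3 each). Forms that do not code for protein took 36.0 ± 5.02% and 34.5 ± 6.20% of the *Slc9a8* counts. Slc9a7-201, 1 of 5 transcripts, took 59.5 ± 8.05% in WT and 48.1 ± 6.59% in Drp1 KO BMDMs (SD, n = 3 each). The protein-coding form Slc9a7-202 took 15.3, 31.4 and 15.4% in WT and 42.3, 38.4 and 28.1% in Drp1 KO libraries, with WT library 2 above Drp1 KO library 3, and it was higher in Drp1 KO in all 3 same-numbered pairs. Slc9a5-201, 1 of 2 transcripts, took 54.7 ± 10.2% in WT and 64.3 ± 16.1% in Drp1 KO BMDMs (SD, n = 3 each). The 3 shares overlapped between genotypes. The estimates divide shared reads among forms by a model, so shares of forms with few counts are uncertain.

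**Figure D5:**
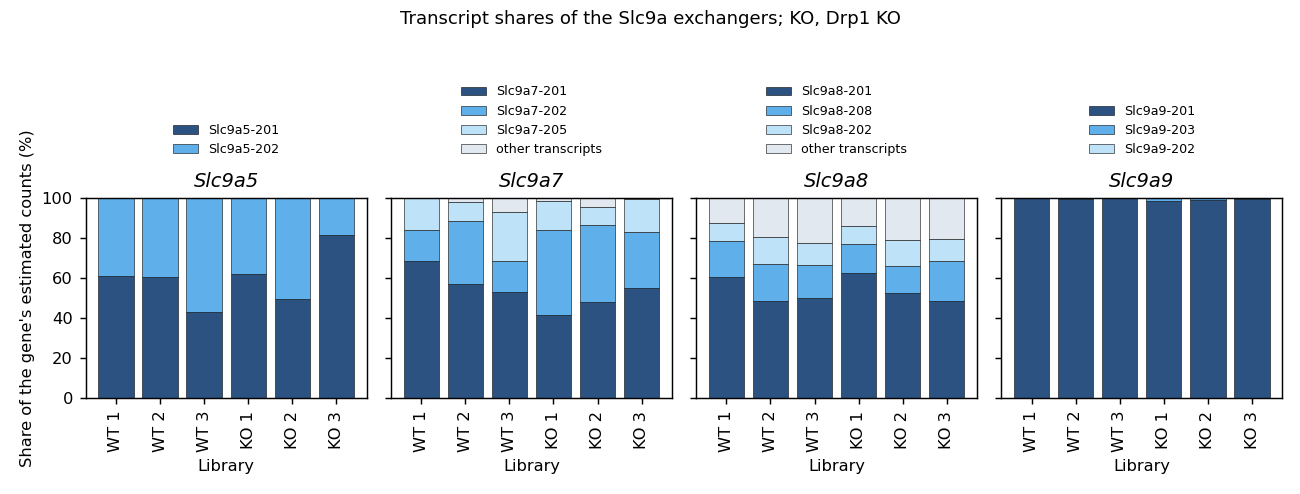
Share of each gene's estimated counts (vertical axis, percent) taken by its 3 leading transcripts and by the others, in each of the 3 WT and 3 Drp1 KO (KO) libraries. *Slc9a9* is nearly all Slc9a9-201 in each library, at 98.6% or more, while *Slc9a5*, *Slc9a7* and *Slc9a8* are split.

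Genes whose levels followed a member most closely over the 6 libraries were found by Pearson's r of log2 CPM among 12247 other genes whose mean reached 1 CPM. For *Slc9a9* these were *Rexo4*, a nucleolar exonuclease gene (r = 0.997), *Ehbp1l1*, a Rab effector gene (r = 0.995), and *Man2a2*, a Golgi mannosidase gene (r = 0.994). *Rexo4* had 27.7 ± 0.850 CPM in WT against 16.6 ± 0.614 CPM in Drp1 KO cells (SD, n = 3 each), and 493 genes had an r over 0.9 with *Slc9a9*. The points share their genotype, so genes that differ between genotypes can reach a high r with each other over 6 libraries. The closest genes to *Slc9a8* were *Hikeshi*, a nuclear import carrier of heat shock proteins, *Zfp1003*, a zinc finger gene, and *Idnk*, a gluconokinase gene, at 0.997, 0.989 and 0.986, of 194 genes over 0.9. For *Slc9a7* they were *Nme7*, *Mtfmt* and *Wdr44* at 0.990, 0.981 and 0.979, of 104 genes. For *Slc9a5* they were *Kcnh7*, *Pdss1* and *Neurl1a* at 0.993, 0.990 and 0.986, of 71 genes, where the counts of *Slc9a5* are low.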

How the data were processed

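RNA of 6 BMDM cultures after HSS was analysed, 3 WT and 3 Drp1 KO. The authors quantified the reads with kallisto 0.46.1 on Ensembl cDNA of GRCm39 and deposited, per library, an estimated count for each transcript, not scaled between libraries. The deposited TPM of each transcript is the authors' value after division by effective length. Whether strand or bias options were used is not given in the sources used here. The paper and the labels differ in oxygen (2% and 2.1%), L929 medium (20% and 10%), RNA extraction and library kit.

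Of 116873 transcripts, 116159 (99.4%) matched GENCODE vM39 by identifier, and 0.542% to 0.575% of counts lay on the rest. Counts and TPM of the transcripts of a gene were summed, the counts were rounded, and genes with at least 10 counts in total were fitted with edgeR 4.0.16 (R 4.3.3; TMM, quasi-likelihood test, no covariate, Benjamini-Hochberg over 18506 genes, threshold 0.05). The 4 members and all gene lists were chosen with earlier results of these data known. Named were the members, the Slc9 genes listed, *Dnm1l*, the called genes (at most 5) and the gene of highest TPM of each list, and the 3 genes most like each member (log2 CPM, prior count 2). Other genes named were chosen after their values were seen, as stated there. An exact test planned for the transcript shares is not given, since the shares divide by the counts on which the members were chosen. Some genes are not reported here.

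WT and Drp1 KO libraries share replicate numbers 1 to 3. Deviations from the group means correlated at 0.510, 0.204 and 0.298 between same-numbered libraries over 12248 genes, so the numbers were taken to pair them, from the data. The pair that correlated most among the others was WT library 2 and Drp1 KO library 3 (0.326). Alternatives were DESeq2 1.42.0, other size factors and filters, the replicate block, length-scaled counts, protein-coding transcripts only and each library left out. The floor of 3 counts covers counting error only.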

Additional observations from a re-analysis of the deposited data

How the results depend on the processing

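The number of genes called, 621, was 1155 with DESeq2, 1065 with no filter beyond 1 count and 2212 with libraries of the same number as pairs (replicate block). With a library left out it ran from 181 to 904, where leaving out WT library 2 gave 181, WT library 3 gave 217, Drp1 KO library 2 gave 268 and Drp1 KO library 3 gave 348. The number of partner genes called, 1, was 2 with the replicate block, 0 with length-scaled counts and 0 to 0 with each library left out. The endosomal list had 1 call with the block. The V-ATPase list, with 1 call, had 3 with DESeq2, 2 with no filter beyond 1 count, 4 with the block, 0 with length-scaled counts and 1 to 2 with a library left out (2 when WT library 1 or Drp1 KO library 1 was left out). The surface pH list, with 1 call, had 3 with the block, 0 with length-scaled counts and 0 to 1 with a library left out. With length-scaled counts the log2 fold change of *Slc9a8* was -0.0038. By TPM, the share of Slc9a9-201 was 2.53 percentage points lower in Drp1 KO BMDMs (-2.53, against -0.705 by counts). With protein-coding transcripts only, the organellar share of the members' TPM in WT was 99.87%, against 99.80%, *Slc9a9* was 32.6 (WT) and 15.3 (Drp1 KO) times *Slc9a8*, and *Slc9a8* was 0.516 and 0.619 times *Slc9a7*, against 2.07 and 2.30 over all transcripts, which turns their order. With counts per effective length *Slc9a9* was 8.24 times *Slc9a8* in WT. The cause of these shifts was not tested. The log2 fold changes of *Slc9a5*, *Slc9a7* and *Slc9a9* moved by less than the spread between replicates under all 14 settings, with blocked values of -0.04, -0.10 and -0.96, and none of the 6 further Slc9 genes was called under any setting that gave a value, though the sign turned for *Slc9a5* (-0.27 to 0.30), *Slc9a7* (-0.20 to 0.02), *Slc9a3* (-0.86 to 0.67), *Slc9a4* (-0.49 with length-scaled counts) and *Slc9b2* (-0.11 to 0.37). Depth limits *Slc9a5*, *Slc9a2*, *Slc9a3* and *Slc9b1*, and groups of 3 libraries were not screened for outlying samples.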
